A study of Rattus norvegicus with 12 samples.

Results

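Fibronectin and the matricellular genes were followed in fibroblast-like synoviocytes (FLS), the mesenchymal cells of the joint lining, from rats with adjuvant arthritis. The 9 genes, Fn1, Tnc, Postn, Sparc, Thbs1, Thbs2, Vcan, Fbn1 and Eln, were taken by gene symbol from a table of 22442 gene records. Where a symbol had more than 1 record, the record with the highest mean was used. Expression was given as FPKM, fragments scaled by transcript length and by the mapped reads of the library, so levels of different genes are compared here per length.

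Poly(A) RNA was sequenced from 12 libraries in 4 groups of 3. The cells came from the synovium of male Sprague Dawley rats that had received Freund's complete adjuvant (CFA) in a hind paw, and were used at the third passage. The FCA group was kept in DMEM alone, and the AT01, AT1 and AT10 groups received taurochenodeoxycholic acid (TCDCA), a taurine-conjugated bile acid, at 0.1, 1 and 10 µM for 12 h. All 4 groups were arthritic cells, so there was no healthy control in these data. The age of the rats was not given in the sources used here. The paper describes the replicate numbers as 3 sets of repeated studies. Neither it nor the labels say that the 3 libraries of a group came from separate cultures or animals. The p-values below therefore measure only the spread between these libraries, which may be technical.

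Fibronectin is laid down by fibroblasts as fibrils that cells grip through integrins, and fibrillin-1 and elastin, the products of Fbn1 and Eln, form microfibrils and elastic fibres. The matricellular proteins, among them tenascin-C, periostin, SPARC and the thrombospondins, are secreted into the matrix but mainly alter how cells attach, move and respond to growth factors. Versican, encoded by Vcan, is a large proteoglycan that binds hyaluronan. In inflamed synovium fibronectin and tenascin-C are known as components of the thickened lining.

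The FPKM columns summed to between 284210 and 309696 per library. Read counts per gene were not given with the values, so the reads behind each value are unknown. The paper lists the total reads of each library, which were most in AT01 replicate 3. The lowest correlation between 2 libraries was 0.926 (Pearson r over 11611 records of log2(FPKM + 1)). Of 11 FLS markers 9 were found by name, all with a mean of at least 1 FPKM, and their sum ran from 3686 to 5575 FPKM. Vim was the largest part of it, with a mean of 2658 FPKM. Of 6 endothelial markers 5 were found, without Pecam1, and summed to at most 0.21 FPKM, with Tie1 at 0 in every library. Of 10 macrophage and leukocyte markers 7 were found, without Ptprc, Cd163 and Tyrobp. The 7 summed to between 5.81 and 22.1 FPKM, most of it Cd14 (mean 13.8 FPKM), with Cd3e at 0. A name that was not found is not a low level, and Col1a2 and Pdgfra of the FLS list were not found either. Chondrocyte markers summed to between 3.59 and 8.61 FPKM. Adipocyte markers summed to between 78.4 and 105 FPKM, most of it Lpl and Fabp4 (means of 55.0 and 33.1 FPKM). The 5 smooth muscle and myofibroblast markers found summed to between 309 and 413 FPKM in FCA, and to between 160.3 and 304 FPKM over the 9 TCDCA libraries, below every FCA library. Most of this sum was Acta2, with means of 317 FPKM in FCA and 224, 229 and 209 FPKM in AT01, AT1 and AT10. Of the 5 markers, 3 had a log2 difference below 0 over the TCDCA libraries and 2 above it, with a median of -0.02.

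The members fell into 3 ranges of level. Sparc, Thbs1 and Fn1 were among the 10 most abundant records of the table, with mean levels over the 12 libraries of 1971, 1770.3 and 1383 FPKM. Tnc and Thbs2, with means of 669.6 and 599 FPKM, were also within the top 55 records. Postn followed at 108 FPKM, Fbn1 at 64.0 FPKM and Vcan at 42.0 FPKM. Eln was close to absent, with a mean of 0.0842 FPKM. The 9 members together took between 1.91% and 2.39% of the FPKM sum of a library. Sparc also had a second record with a mean of 9.25 FPKM, 0.467% of the FPKM under its name, and Thbs2 a second one of 0.742 FPKM.

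The order of the members was stable from library to library. In 7 of the 12 libraries it was the order of the means, and 4 different orders occurred in all. Sparc stood above Thbs1 in 10 of the 12 libraries and Tnc above Thbs2 in 8 of 12, so neither pair of neighbours was separated beyond its spread. Thbs1 was higher than Fn1 within every library, although their ranges over the 12 libraries overlapped. Each of the other neighbours kept its order in all 12 libraries, with ranges that did not overlap.

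The start regions of 4 members are shown to place the genes that the comparisons below turn on. Sparc and Thbs1 had the highest levels, Tnc differed most at the lowest dose, and Postn ran opposite to Sparc. RefSeq windows (rat build GRCr8) of 250 bases before to 50 bases after a transcription start were at hand for 6 of the 9 members, Tnc, Postn, Sparc, Thbs1, Vcan and Fbn1. The genome build of the deposited records was not given in the sources used here, so no coordinate was taken from them. The sequences are 5′ to 3′ on the gene's strand, with capitals marking matches to the motifs named after them.
Sparc, chr10:40038767-40039066, minus strand: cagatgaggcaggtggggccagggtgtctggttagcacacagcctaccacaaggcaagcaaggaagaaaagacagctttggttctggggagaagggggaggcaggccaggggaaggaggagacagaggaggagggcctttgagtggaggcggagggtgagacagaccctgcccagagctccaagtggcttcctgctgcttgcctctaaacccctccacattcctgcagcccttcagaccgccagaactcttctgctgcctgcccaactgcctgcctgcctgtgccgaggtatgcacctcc
Thbs1, chr3:125510000-125510299, plus strand: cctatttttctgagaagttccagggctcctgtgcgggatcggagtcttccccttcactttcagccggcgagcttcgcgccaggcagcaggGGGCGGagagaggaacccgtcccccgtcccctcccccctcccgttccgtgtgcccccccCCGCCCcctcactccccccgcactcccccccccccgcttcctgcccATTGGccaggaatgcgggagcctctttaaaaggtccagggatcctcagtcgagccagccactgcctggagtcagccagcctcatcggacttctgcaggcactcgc
Tnc, chr5:82476082-82476381, minus strand: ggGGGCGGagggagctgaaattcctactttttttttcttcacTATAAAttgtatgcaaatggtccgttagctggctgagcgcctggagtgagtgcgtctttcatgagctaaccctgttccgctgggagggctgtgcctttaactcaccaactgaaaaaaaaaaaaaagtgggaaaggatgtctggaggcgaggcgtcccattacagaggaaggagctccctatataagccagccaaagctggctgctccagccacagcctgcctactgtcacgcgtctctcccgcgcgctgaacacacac
Postn, chr2:140677811-140678110, plus strand: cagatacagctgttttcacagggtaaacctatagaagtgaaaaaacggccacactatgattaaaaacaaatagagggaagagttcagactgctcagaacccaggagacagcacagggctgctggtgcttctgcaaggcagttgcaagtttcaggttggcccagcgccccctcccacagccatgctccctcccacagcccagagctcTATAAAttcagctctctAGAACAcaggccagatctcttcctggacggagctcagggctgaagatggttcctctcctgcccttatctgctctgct

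Of 33469 RefSeq windows of the same length, 14.2% held a TATA box (TATAAA), 37.5% a CCAAT box (CCAAT), 33.1% a GC box (GGGCGG), 1.83% a cAMP response element (TGACGTCA), 7.33% an AP-1 site (TGANTCA) and 20.7% a glucocorticoid half-site (AGAACA), on either strand. The Postn window held a TATA box 44 bases before the start and a glucocorticoid half-site 27 bases before it. Tnc had a match to TATAAA 208 bases and a GC box 248 bases upstream. Its window also reads tatataag closer to the start, which the search for TATAAA does not match. Thbs1 had a CCAAT box on the reverse strand 55 bases upstream and GC boxes 101 and 160 bases upstream. Of the pair of Vcan windows, the first had a CCAAT box 167 bases and a GC box 74 bases upstream, both on the reverse strand, and the second, which overlaps it, the same GC box 172 bases upstream. No match overlapped one of another motif. The Sparc and Fbn1 windows held none of the 6 motifs, and neither a cAMP response element nor an AP-1 site was found in any member's window. A match of letters is a description and was tied to no measurement here.

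The first question was whether any member differed with TCDCA. None of the 8 members tested did by the adjusted p of limma, at any dose or between doses. Fn1 and Sparc lay lower at 10 µM and Tnc lower at 0.1 µM at unadjusted p-values below 0.05, and Vcan and Postn lay on the higher side, but these differences did not pass the adjustment over all 11611 records. Eln, at under 1 FPKM, was not tested with the rest.

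**Figure D1:**
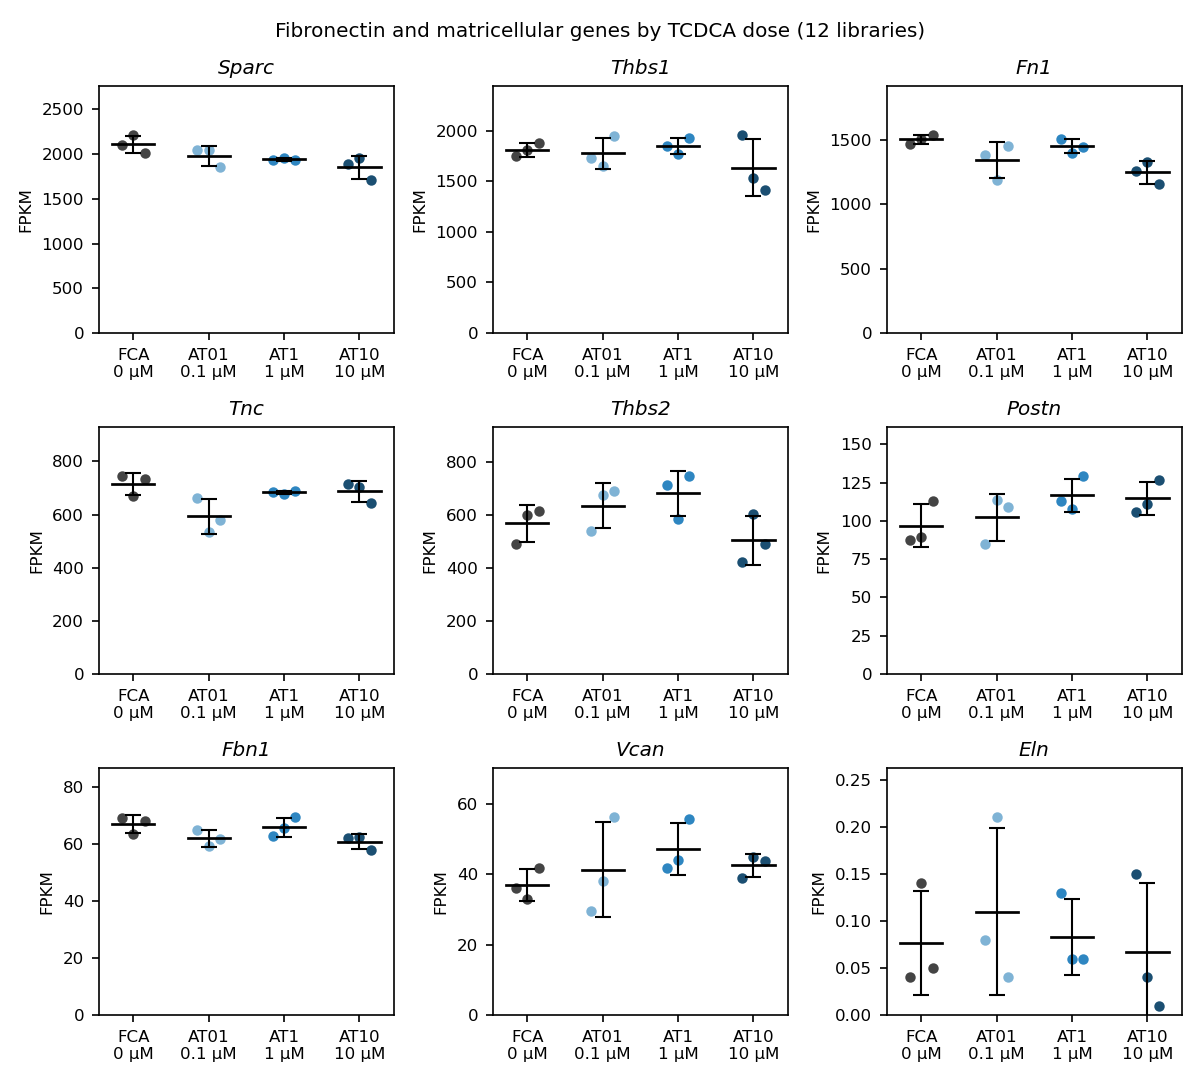
FPKM of the 9 members in each of the 12 libraries, by group and TCDCA dose. Points are libraries, the long bar is the group mean and the whiskers are 1 SD (n = 3), with each vertical axis starting at 0. The 3 AT10 libraries of Fn1 sit between 1154 and 1329 FPKM, below the 3 FCA libraries at 1462 to 1532 FPKM.

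Fn1 encodes fibronectin, the fibril-forming adhesive glycoprotein of the matrix. FCA libraries held 1462, 1508 and 1532 FPKM of it and AT10 libraries 1255, 1329 and 1154 FPKM. AT1 libraries held 1502, 1394 and 1444 FPKM, and AT01 libraries 1383, 1184 and 1453 FPKM. The 3 AT10 and the 3 AT01 libraries were each below all FCA libraries, while the AT1 libraries overlapped FCA. The AT10 mean was 1246 ± 88.0 FPKM (SD, n = 3) against 1501 ± 35.7 FPKM in FCA (n = 3), a difference of -17.0%. On the log2(FPKM + 1) scale this was -0.27 (SE 0.0684, 95% interval -0.44 to -0.10), with an unadjusted p of 0.00833 and an adjusted p of 0.242 in limma. The difference of the middle dose from FCA was -0.05 (adjusted p = 0.692) and that of the lowest dose -0.17 (adjusted p = 0.774), so the 3 doses did not line up in order. AT10 also lay below every AT1 library, by -0.22 on the log2 scale (SE 0.0727, unadjusted p = 0.0264, adjusted p = 0.748).

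Tnc encodes tenascin-C, a hexameric glycoprotein that modulates adhesion to fibronectin. It was measured at 743, 668 and 733 FPKM in FCA, at 664, 536 and 579.9 FPKM in AT01, at 684, 678 and 688 FPKM in AT1 and at 714, 704 and 643 FPKM in AT10. All 3 AT01 libraries were below all FCA libraries, and the other doses overlapped FCA. The AT01 difference from FCA was -0.27 on the log2 scale (SE 0.102, 95% interval -0.53 to -0.02, unadjusted p = 0.0389), with an adjusted p of 0.720 in limma. At 10 µM the difference was -0.06 (adjusted p = 0.749) and at 1 µM -0.06 (adjusted p = 0.665). The AT1 libraries stood above all AT01 libraries, by 0.21 (SE 0.0947, unadjusted p = 0.0723, adjusted p = 1).

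Postn encodes periostin, a fasciclin-domain protein that links collagen and tenascin-C in the matrix. Its levels were 87.7, 89.7 and 113 FPKM in FCA, 84.8, 114 and 109 FPKM in AT01, 113, 108 and 129 FPKM in AT1 and 106, 111 and 127 FPKM in AT10. The mean was higher at each dose than in FCA, but the FCA library of replicate 3 overlapped each treated group. The differences on the log2 scale were 0.25 at 10 µM (adjusted p = 0.494), 0.27 at 1 µM (adjusted p = 0.465) and 0.08 at 0.1 µM (adjusted p = 0.918).

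Sparc encodes SPARC (osteonectin), a collagen-binding, counter-adhesive glycoprotein. It was at 2105, 2209 and 2016 FPKM in FCA, at 2044, 2051 and 1851 FPKM in AT01, at 1931, 1954 and 1936 FPKM in AT1 and at 1890.0, 1961 and 1706 FPKM in AT10. The group means descended with dose, from 2109.8 to 1982, 1940 and 1852 FPKM, and all AT1 and all AT10 libraries were below all FCA libraries. Against FCA the log2 difference was -0.19 at 10 µM (SE 0.0743, 95% interval -0.37 to -0.00495, unadjusted p = 0.0458, adjusted p = 0.410) and -0.12 at 1 µM (SE 0.0553, unadjusted p = 0.0757, adjusted p = 0.465). At 0.1 µM it was -0.09 (adjusted p = 0.825), with libraries on both sides of the lowest FCA value. Neighbouring doses overlapped.

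The thrombospondins are trimeric (Thbs1, Thbs2) glycoproteins that bind cells and other matrix proteins, and thrombospondin-1 can activate latent TGF-beta. Thbs1 was at 1750.2, 1807 and 1885 FPKM in FCA, at 1736, 1653 and 1949 FPKM in AT01, at 1854, 1768 and 1930 FPKM in AT1 and at 1956, 1538 and 1417 FPKM in AT10. Every treated group overlapped FCA, and the AT10 group held both the highest and the lowest Thbs1 value of the 12 libraries. Its log2 differences from FCA were -0.16 at 10 µM, 0.03 at 1 µM and -0.03 at 0.1 µM (adjusted p = 0.630, 0.861 and 0.947).

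Thbs2 was at 491, 601 and 615 FPKM in FCA, at 539.6, 677 and 692 FPKM in AT01, at 716, 585 and 747 FPKM in AT1 and at 422, 606 and 489.7 FPKM in AT10. All 3 doses overlapped FCA. The largest difference of any member in any comparison was that of Thbs2 between AT10 and AT1, -0.44 on the log2 scale (SE 0.163, 95% interval -0.84 to -0.04, unadjusted p = 0.0377, adjusted p = 0.748). The 2 groups overlapped even there, and the two-sided exact permutation p was 0.2. Against FCA the differences were -0.18, 0.26 and 0.16 at 10, 1 and 0.1 µM (adjusted p = 0.659, 0.491 and 0.825).

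Vcan, the versican gene, was at 36.1, 32.9 and 41.7 FPKM in FCA, at 29.7, 38.1 and 56.1 FPKM in AT01, at 41.73, 44.2 and 55.6 FPKM in AT1 and at 38.9, 44.9 and 43.6 FPKM in AT10. The AT1 libraries were above all FCA libraries, the closest pair being 41.73 and 41.70 FPKM, and the AT01 libraries spanned the range from the lowest to the highest value of the study. The AT1 difference was 0.34 on the log2 scale (SE 0.140, 95% interval -0.00597 to 0.69, unadjusted p = 0.0529, adjusted p = 0.453), against 0.20 for AT10 (adjusted p = 0.501) and 0.12 for AT01 (adjusted p = 0.921). Without the AT01 library of replicate 3 the last of these was -0.12.

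Fbn1, which encodes the microfibril protein fibrillin-1, was at 69.4, 63.5 and 68.2 FPKM in FCA, at 65.2, 59.4 and 61.7 FPKM in AT01, at 62.9, 65.6 and 69.5 FPKM in AT1 and at 62.4, 62.5 and 58.0 FPKM in AT10. The AT10 libraries were below every FCA and every AT1 library. The log2 difference of AT10 was -0.13 from FCA (SE 0.0634, unadjusted p = 0.0811, adjusted p = 0.461) and -0.11 from AT1 (adjusted p = 0.778). Eln, the gene of elastin itself, was listed between 0.01 and 0.21 FPKM over the 12 libraries. With no filter on low values its adjusted p lay between 0.873 and 0.999 in the 7 comparisons.

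**Figure D2:**
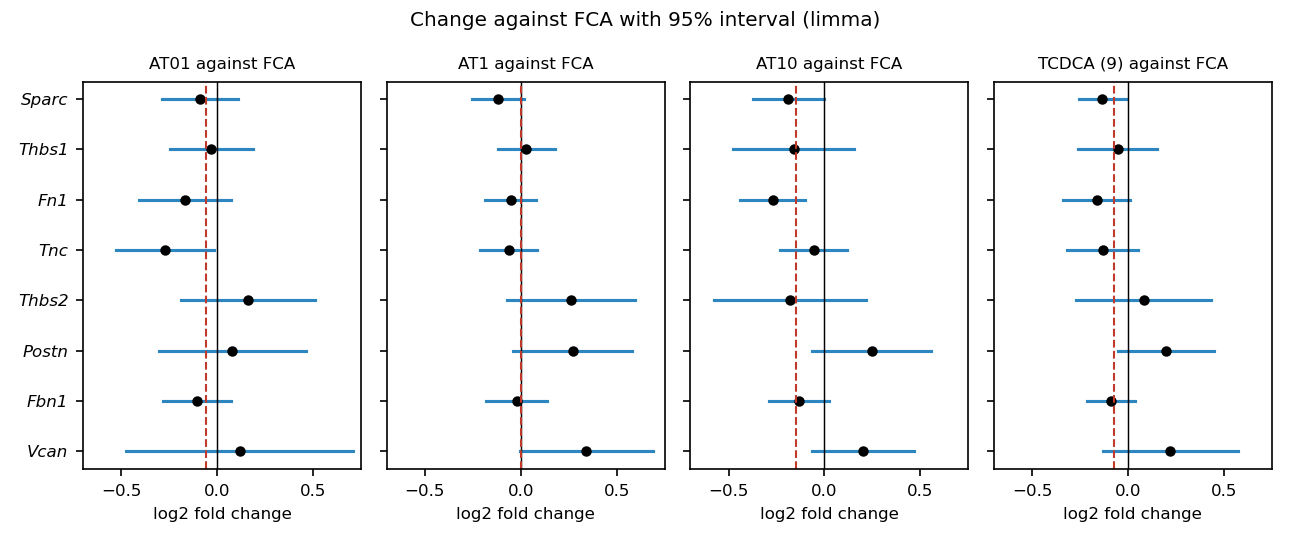
Difference from FCA of the 8 tested members at each dose and over the 9 TCDCA libraries, as log2 fold change of FPKM + 1 with its 95% interval from limma. The dashed line is the median of the members, which lies at -0.15 for AT10, and the intervals of Fn1 and Sparc at 10 µM and of Tnc at 0.1 µM end below 0 before adjustment.

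Counted over the 8 tested members, 0 had an adjusted p under 0.05 in limma in AT10 against FCA, where 0.172% of all 11611 records did. The count was also 0 for AT1 (0.0947% of all records) and for AT01 (0.0947%) against FCA. Between doses it was 0 for AT10 against AT1 (0.258%), for AT1 against AT01 (0.129%) and for AT10 against AT01 (0.0689%). With shares this low over all records, 0 of 8 is no result about the members. The study's own cut-off, which asks for more than a doubling or halving at unadjusted p under 0.05, was met by 0 members in each comparison. No member's difference passed 1 on the log2 scale.

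At an unadjusted p under 0.05, the members on the lower side were Fn1 and Sparc in AT10 against FCA (2 of 8, against 4.34% of all records), Tnc in AT01 against FCA (1 of 8, against 4.03%) and Fn1 and Thbs2 in AT10 against AT1 (2 of 8, against 3.74%). In limma no member was on the higher side at that threshold in any comparison. In AT1 against FCA and in AT01 against either higher dose, 0 members reached it in limma in either direction. A nested-model F test of the kind run by Ballgown, the study's tool, called 0 members and at most 2 of the 11611 records by adjusted p in each comparison. At unadjusted p under 0.05 it counted 2 members in AT10 against FCA (10.4% of all records), 2 in AT10 against AT1 (8.79%) and 3 in AT1 against AT01 (5.93%). The count was 0 for AT1 (6.83%), AT01 (5.71%) and TCDCA (8.51%) against FCA and for AT10 against AT01 (5.22%). In AT1 against AT01 only 1 of the 8 members lay below 0 by this F test, and the median of the members was 0.267. With 1 library left out at a time, the limma count ran from 1 to 3 in AT10 against FCA, where Fn1 was under 0.05 each time and Sparc only without the AT10 library of replicate 2. It ran from 0 to 1 in AT01 against FCA, with Tnc lost without FCA replicate 1 or 3 or AT01 replicate 2 or 3. In AT10 against AT1 it ran from 0 to 2, and was 0 without AT1 replicate 1 or 3 and 1 without AT10 replicate 1 or 3. The share of all records at that threshold was not counted with a library left out.

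Groups that did not overlap were counted next. In AT10 against FCA 3 of the 8 members, Fn1, Sparc and Fbn1, had all AT10 libraries below all FCA libraries, as had 9.18% of all records. In AT01 against FCA it was 2 of 8, Fn1 and Tnc, against 8.06% of all records, and in AT1 against FCA 1 of 8, Sparc, against 10.0%. In AT10 against AT1 it was 2 of 8, Fn1 and Fbn1, against 8.16%. On the higher side Vcan was the 1 of 8 in AT1 against FCA (9.87% of all records) and Tnc the 1 of 8 in AT1 against AT01 (4.86%). For 3 libraries against 3, the smallest two-sided exact permutation p is 0.1, which each of these members had, so that test could not reach 0.05.

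The median difference of the members from FCA was -0.15 on the log2 scale in AT10, 0.0029 in AT1 and -0.06 in AT01, beside medians over all records of -0.0085, 0.016 and 0.0017. The AT10 median was -0.08 without the AT10 library of replicate 3, which had the lowest Fn1, Sparc, Thbs1 and Fbn1 values. The 3 comparisons share the FCA libraries and are not independent of each other. Bulk values cannot tell apart fewer cells of a type and less RNA per cell. Beside these values, the AT10 libraries had FLS marker sums of 3686 to 5172 FPKM and smooth muscle marker sums of 160.3 to 304 FPKM, against 4852 to 5575 and 309 to 413 FPKM in FCA. The smooth muscle sum was mostly Acta2. The part of either sum in the members' differences was not tested.

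Over the 9 TCDCA libraries together, Sparc was the 1 of 8 members on the lower side at unadjusted p under 0.05, against 6.15% of all records. No member passed the adjusted threshold, which 0.0258% of all records did. Sparc was below the FCA mean in 9 of 9 TCDCA libraries and below all FCA libraries in 7 of them. Its log2 difference was -0.13 (SE 0.0558, 95% interval -0.26 to -0.01, adjusted p = 0.380), and the two-sided exact permutation p was 0.0318 before any correction, where the smallest possible is 0.00455. Fn1 was below all FCA libraries in 8 of 9 (log2 difference -0.16, adjusted p = 0.442). Tnc was below the FCA mean in 9 of 9 libraries (log2 difference -0.13, adjusted p = 0.553). Vcan and Postn were above the FCA mean in 8 of 9 libraries each, with log2 differences of 0.22 (adjusted p = 0.605) and 0.20 (adjusted p = 0.503). The exact permutation p was 0.0591 for Fn1, 0.118 for Tnc, 0.236 for Vcan and 0.127 for Postn. All 9 libraries were set against the same 3 FCA libraries. The share of all records with such library counts was not taken, so these counts are no result about the members. Sparc lost its unadjusted call without FCA replicate 1 or 2 or AT10 replicate 1. In all, 5 of the 8 members had a log2 difference below 0, as had 49.3% of all records.

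Any difference among the 4 groups was tested next. By the limma F test Fn1 (unadjusted p = 0.0340) and Tnc (unadjusted p = 0.0367) were the 2 of 8 members under 0.05, where 8.57% of all records were, and both had an adjusted p of 0.569. With 1 library left out at a time the unadjusted p of the limma F test ran from 0.0127 to 0.0943 for Fn1 and from 0.00452 to 0.176 for Tnc. No member passed the adjusted threshold, which 0.0431% of all records did. The groups held 63.1% of the variance of Fn1 and 62.9% of that of Tnc, with exact permutation p-values of 0.0392 and 0.0356 over all 15400 groupings. For Sparc the share was 55.4%, for Fbn1 52.1% and for Thbs2 48.6%, and for Vcan it was 24.3%, below the median of 30.2% over all records.

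The members differed in how tightly they were held. Fbn1 and Sparc varied least over the 12 libraries, with SDs of 0.0817 and 0.0953 on the log2 scale. Only 12.5% of 578 records of like level were tighter than Fbn1, and none of 6 were tighter than Sparc. Vcan (SD 0.264) and Thbs2 (SD 0.249) varied most, and 72.6% and 82.5% of records of like level were tighter. The remaining members, Fn1, Tnc, Thbs1 and Postn, had SDs between 0.136 and 0.193.

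Ratios within a library show how the members stood to each other. Tenascin-C to fibronectin mRNA (Tnc over Fn1) was 0.530 to 0.569 in AT10, above all other libraries, where it ran from 0.399 in AT01 to 0.508 in FCA. Periostin to fibronectin (Postn over Fn1) was 0.0836 to 0.110 in AT10 and 0.0751 to 0.0893 in AT1, both above the 0.0594 to 0.0738 of FCA, while the 0.0613 to 0.0959 of AT01 overlapped it. Thbs2 over Thbs1 overlapped in all groups, with means of 0.313 in FCA, 0.359 in AT01, 0.368 in AT1 and 0.318 in AT10. These ratios were chosen with the values known and were given no test. Tnc over Fn1 and Postn over Fn1 both carry the lower Fn1 of AT10. How often ratios of other records separate the groups was not counted.

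Correlations across the 12 libraries were computed for all 28 pairs of the 8 tested members on log2(FPKM + 1). Of these, 20 were positive and 6 had an unadjusted permutation p under 0.05, and 0 passed after Benjamini-Hochberg adjustment. The highest was between Postn and Vcan, with Pearson r = 0.77 (permutation p = 0.0036, adjusted 0.101) and Spearman rho = 0.58 (permutation p = 0.0529, adjusted 0.371). It was 0.63 without the 2 libraries farthest from the median of Postn, and 0.71 for deviations from the group means. Sparc ran the other way, at r = -0.69 with Postn (permutation p = 0.0114, adjusted 0.106, rho = -0.43 with permutation p = 0.162) and -0.59 with Vcan (permutation p = 0.0410, adjusted 0.191, rho = -0.69 with permutation p = 0.0150). Within groups these were -0.57 and -0.58.

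Fn1 and Fbn1 had r = 0.72 (permutation p = 0.00796, adjusted 0.106, rho = 0.62 with permutation p = 0.0368). It was 0.38 without the 2 libraries farthest from the median of Fn1, and 0.38 within groups. Fn1 and Thbs1 had r = 0.64 (permutation p = 0.0239, adjusted 0.134, rho = 0.48 with permutation p = 0.121), 0.22 without the 2 farthest libraries and 0.51 within groups. Leaving out the farthest libraries narrows the range of the first gene, which can lower r by itself. Tnc and Fbn1 had r = 0.65 (permutation p = 0.0189, adjusted 0.132, rho = 0.63 with permutation p = 0.0313), 0.62 without the 2 farthest libraries and 0.82 within groups. The points share the normalization of their library.

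**Figure D3:**
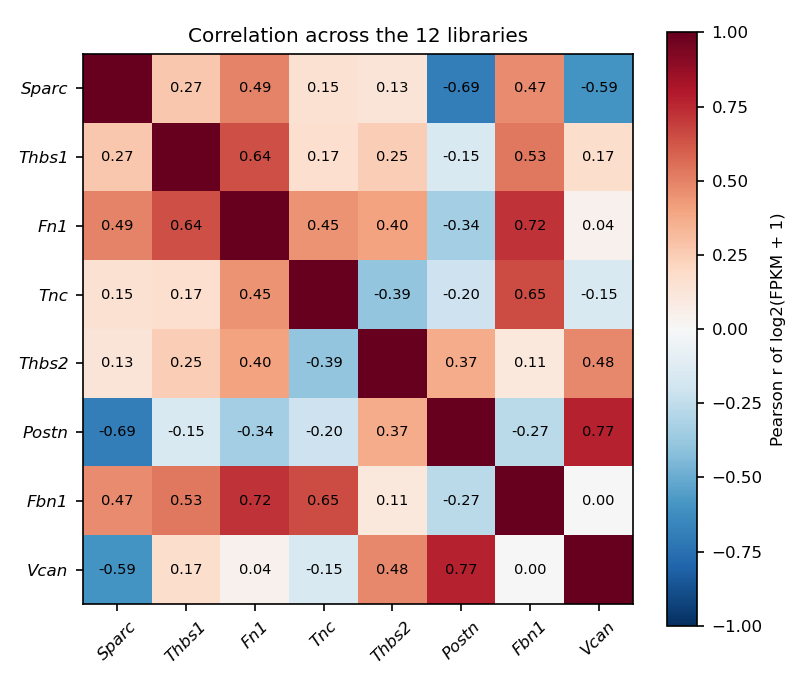
Pearson r of log2(FPKM + 1) across the 12 libraries for each pair of the 8 tested members, ordered by mean level. Red is positive and blue negative, and the 2 deepest blue cells are Sparc with Postn (-0.69) and with Vcan (-0.59).

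Among all tested records with a gene name, those most like each member across the 12 libraries were listed as a description. For Fn1 they were Slx4 (r = 0.94) and Tom1l2 (0.90), and for Tnc Adam19 (0.95), a membrane metalloprotease, and Mnt (0.93). Postn was most like Pcm1 (0.94) and RGD1306148 (0.94), and Vcan like Kdm6a (0.95) and Setdb2 (0.95). Sparc was most like Ift43 (0.95) and Capn1 (0.92), Thbs1 like Ppp1r13b (0.91) and Smpd1 (0.84), and Thbs2 like Blvrb (0.84) and Colec12 (0.84). For Fbn1 they were Dzip1 (0.92) and Pxdn (0.91), the latter a peroxidase of the matrix. Each was picked as the highest of the records tested, over only 12 libraries, so its r carries no test.

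The other genes of the pathway were read from 5 lists. None of their genes passed the adjusted threshold in any of the 7 comparisons. In TCDCA against FCA, at unadjusted p under 0.05, where 6.15% of all records stood on the lower side, limma counted 5 such genes in other matrix glycoproteins, 8 in elastic fibre and microfibril assembly, 2 in receptors, 0 in proteases and link proteins and 2 in the TGF-beta list, and 1 on the higher side, in the TGF-beta list. These counts moved with single libraries. Without FCA replicate 2 the glycoprotein count was 0 and the elastic fibre count 2, and without FCA replicate 1 they were 1 and 3. Without AT10 replicate 3 or AT01 replicate 2 the elastic fibre count was 5. The share of all records was not counted for these fits, so a fall particular to the lists cannot be told from one over all records.

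The elastic fibre and microfibril list, the partners of Fbn1 and Eln, stood lowest as a whole by its counts. Of its 18 genes 13 were tested, all 13 with a log2 difference below 0 over the TCDCA libraries, and the median was -0.17 beside 0.0031 over all records. Its smallest adjusted p was 0.337, and the Ballgown-type F test counted 3 genes on the lower side at unadjusted p under 0.05, where 5.16% of all records were, and 12 of 13 below 0. Without FCA replicate 2, 11 of the 13 were below 0 in limma. The 3 most abundant genes were Ltbp2, a latent TGF-beta binding protein (mean 126 FPKM in FCA against 104, 111 and 108 FPKM in AT01, AT1 and AT10, log2 difference -0.22, adjusted p = 0.341), Efemp2, fibulin-4 (log2 difference -0.06, adjusted p = 0.751), and Lox, lysyl oxidase, which crosslinks elastin and collagen (log2 difference -0.09, adjusted p = 0.959). Lox ran from 41.3 to 153 FPKM within FCA alone. Smooth muscle marker sums, which were mostly Acta2, were lower in every TCDCA library than in FCA, as given above. Their part in this list was not tested.

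The other matricellular and matrix glycoproteins had 15 of 21 tested genes below 0 and a median of -0.08. Mgp, matrix Gla protein, an inhibitor of calcification, was the most abundant at 7909 FPKM in FCA against 8812, 8092 and 7207 FPKM in AT01, AT1 and AT10 (log2 difference over TCDCA 0.02, adjusted p = 0.954). Spp1, osteopontin, had a log2 difference of 0.34 (adjusted p = 0.605), and Fbln2, fibulin-2, one of -0.21 (adjusted p = 0.363).

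Of the receptors of the members 5 of 16 tested genes lay below 0, and the median was 0.04. Itgb1, the beta 1 integrin subunit shared by most fibronectin receptors, was at 279.8 FPKM in FCA and at 289, 318 and 316 FPKM in AT01, AT1 and AT10 (log2 difference 0.13, adjusted p = 0.482). Sdc4, the heparan sulphate co-receptor syndecan-4, had -0.11 (adjusted p = 0.420) and Itgb5 0.0022 (adjusted p = 0.991).

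Proteases that cut the members and versican link proteins had 7 of 14 below 0 and a median of -0.01. Mmp2, gelatinase A, had a log2 difference of 0.0014 (adjusted p = 0.995), Mmp3, stromelysin-1, one of 0.12 (adjusted p = 0.728) and Htra1, a serine protease that cleaves fibronectin, one of -0.11 (adjusted p = 0.478). In the TGF-beta list, the growth factors that induce many of the members, 11 of 15 were below 0 with a median of -0.20, and -0.13 without the FCA library of replicate 2. The ligand gene Tgfb1 had a log2 difference of -0.35 (adjusted p = 0.505) and Tgfb3 one of -0.36 (adjusted p = 0.679).

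**Figure D4:**
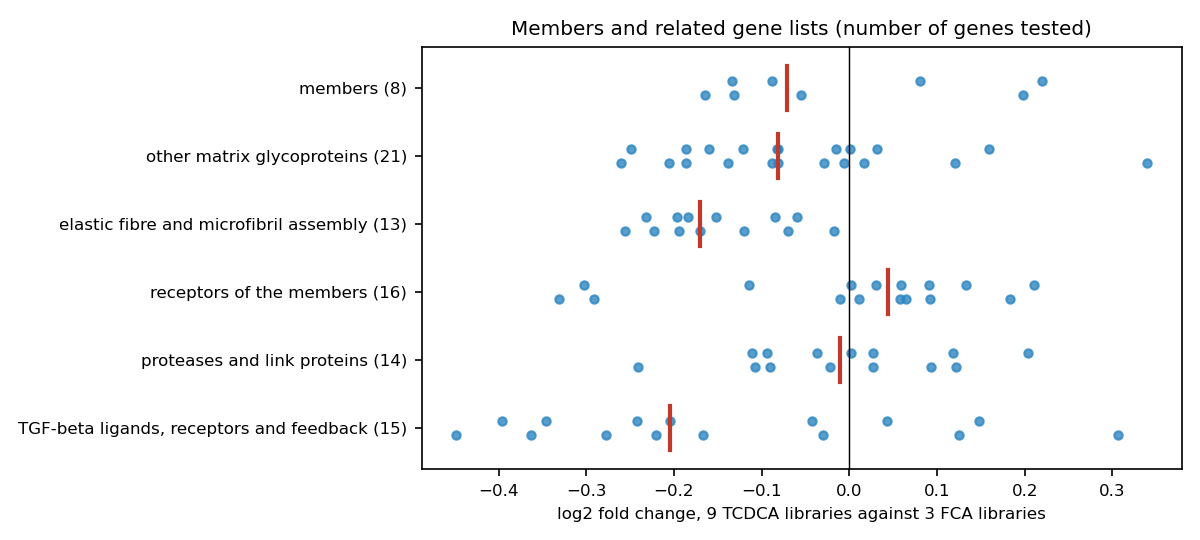
Log2 fold change between TCDCA (9 libraries) and FCA (3 libraries) of each tested gene, members and 5 related lists alike, with the number of genes tested in brackets. Points are genes and the red bar is the list median, which is -0.07 for the members and -0.17 for the elastic fibre and microfibril list, where all 13 points lie left of 0.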

How the data were processed

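Rat FLS libraries (12, in 4 groups of 3) were read from the FPKM table deposited by the authors, who trimmed reads with cutadapt, aligned them with HISAT2 and estimated FPKM per gene with StringTie and Ballgown. The genome build was not given in the sources used here. FPKM is already scaled per library, and no read counts per gene came with it, so no count model was used and the reads behind each value are unknown. Of 22442 records, the 11611 averaging 1 FPKM or more across libraries were tested on log2(FPKM + 1), a scale that understates the differences of low genes, with limma 3.58.1 (lmFit, eBayes with trend) in R 4.3.3, taking 2 groups at a time and adjusting over all records by Benjamini-Hochberg. Exact permutation tests and 100000-resample correlations were written in Python 3.11.15 with NumPy 2.4.6, with ranks and the adjustment of the correlations from SciPy 1.17.1. The limma and Ballgown-type fits were tested on simulated data for AT10 against FCA, and the permutation, correlation and motif steps were not.

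The members and lists were chosen with earlier results of these data known. The text names all members, the 3 most abundant genes of each list, any list gene passing the adjusted threshold, and the 2 records most like each member, except 1 list gene that is not reported here. Other genes of the lists at an unadjusted threshold are counted and not named. Alternatives were a pseudocount of 0.1, no filter, a filter at 10 FPKM, a Ballgown-type nested F test, summing FPKM by gene name, scaling by the median of ratios, 1 fit to all 4 groups, a replicate block and leaving out each library. Libraries of the same replicate number shared no clear pattern (all 18 same-number correlations of deviations were between -0.11 and 0.0942). Such correlations cannot show that the libraries were not paired.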

Additional observations from a re-analysis of the deposited data

How the results depend on the processing

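No member passed or failed the adjusted threshold differently from the values reported under any alternative, single libraries left out included. The smallest adjusted p of a member was lower than 0.242 in none of the alternatives that kept all libraries. Under the Ballgown-type F test 3 small log2 differences changed sign, to -0.00499 for Thbs1 in AT1 against FCA, -0.0464 for Tnc and 0.0370 for Postn in AT10 against AT1, and the median of the members in AT1 against AT01 was 0.267 in place of 0.11. Leaving out 1 library at a time gave a median of the members in AT10 against FCA from -0.148 to -0.0819. For AT1 against FCA it gave -0.00244 to 0.0608 for Thbs1 and -0.0604 to 0.0112 for Fbn1. For AT01 against FCA it gave -0.00196 to 0.206 for Postn, -0.0984 to 0.0205 for Thbs1 and -0.124 to 0.325 for Vcan. For AT10 against AT1 the range was -0.0215 to 0.0534 for Tnc and -0.0997 to 0.0502 for Postn. For AT10 against AT01 it was -0.0567 to 0.00928 for Fbn1 and -0.123 to 0.326 for Vcan. Thbs2 ran from -0.0126 to 0.209 for AT1 against AT01 and from -0.0224 to 0.144 in TCDCA against FCA. Of the lists in TCDCA against FCA, an alternative added after the data were seen, the receptor median ran from -0.0243 to 0.102 and the TGF-beta median from -0.233 to -0.129. The cause of these moves was not tested.

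The replicate numbers were not taken to pair the libraries. With the replicate block the median of the members in AT10 against FCA stayed -0.15 and 0 members passed in each comparison, while the calls over all records in AT10 against FCA went from 20 to 1. At unadjusted p under 0.05 the block gave 3 members in place of 2 in AT10 against FCA, 0 in place of 2 in AT10 against AT1, and 5 in place of 8 genes of the elastic fibre list. With no filter these counts were 1, 0 and 9, where 8 of the 9 genes were on the lower side. With no filter 14 of 17 genes of that list were below 0, with a median of -0.12. Left out 1 at a time, the libraries gave 2 to 8 genes of the elastic fibre list and 0 to 6 of the other glycoproteins. The shares of all records at unadjusted p under 0.05 were not counted in these settings. These moves are therefore no result about the members or the lists. How often a difference of the size seen here would be called with 3 libraries a group is not given. The absence of calls therefore does not show that the members were unchanged.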
